A study of Bos taurus with 2 samples.

Results

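The dystrophin glycoprotein complex was described here through 7 genes chosen by name: DMD, UTRN, DAG1, SGCA, SGCB, SGCD and SSPN. Of these, 6 were matched by symbol to 1 row each among the 21867 features of the count matrices, and DMD, whose symbol had no match, was not analysed here. The cells were bovine satellite cells, the stem cells of skeletal muscle, isolated from the longissimus muscle of 1 male Holstein calf aged 2 weeks and grown for 1 week in DMEM with 10% fetal bovine serum. All 19096 cells received this same treatment, and they were run as 2 droplet libraries made from the same cells, which are called replicates 1 and 2. The comparisons below are therefore between the 15 clusters into which the authors divided the cells, and the spread between the libraries is technical, from 1 animal and 1 culture.

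The complex spans the muscle fibre membrane. Inside the cell, dystrophin, or its relative utrophin encoded by UTRN, binds actin, and DAG1 encodes the alpha and beta subunits of dystroglycan, of which alpha binds laminin outside the cell and beta binds dystrophin or utrophin inside. The sarcoglycans and sarcospan (SSPN) form a subcomplex beside dystroglycan: SGCA, SGCB and SGCD encode alpha-, beta- and delta-sarcoglycan, and SGCE encodes epsilon-sarcoglycan, a relative of alpha-sarcoglycan that is made in many tissues and can take its place. Alpha-sarcoglycan is known for its restriction to striated muscle, and utrophin is known as the form present along the membrane of developing and regenerating fibres.

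Replicate 1 held 9939 cells and 145631299 unique molecular identifiers (UMIs, each standing for 1 captured transcript molecule), with a median of 14626 per cell. Replicate 2 held 9157 cells and 137818568 UMIs, with a median of 15206, and 27 cell barcodes occurred in both libraries. Clusters 7, 13, 14 and 15 were shallow, with medians of 1389, 1631, 2513.5 and 647 UMIs per cell, whereas the medians of the other 11 clusters ran from 5398.5 in cluster 10 to 23011 in cluster 9. A level below is the number of UMIs of a gene per 10000 UMIs of the cluster, and the SD is over the 2 libraries. PAX7, a marker of satellite cells, was near 0 everywhere, at no more than 0.0119 per 10000 UMIs, and the summed level of 5 myogenic markers (PAX7, MYF5, MYOD1, MYOG and DES) ran from 1.85 in cluster 9 to 45.4 in cluster 12. MYOG, a transcription factor of early differentiation, stood at 18.6 ± 0.779 for cluster 12, 6.68 ± 0.107 for cluster 3, 0.877 ± 0.103 for cluster 1 and 0.260 ± 0.0898 for cluster 9 (SD, n = 2 libraries). Cluster 9 had the highest mean levels of PDGFRA and PPARG, which mark fibro-adipogenic cells, at 1.58 ± 0.0744 and 0.288 ± 0.0166. Of the same list, ZNF423 and DCN were also higher there than in the remaining cells, by log2 fold changes of 1.37 and 0.43. LUM differed little, at 0.04, and the collagen genes COL1A1 and COL3A1 were lower, at -0.51 and -1.08. The paper considered this cluster to be fibro-adipogenic, but since the list was split it is called here by its number. The summed level of 5 endothelial markers was at most 0.0299 and that of 4 immune markers at most 0.180 in any cluster.

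The genes of the complex differed widely in how many UMIs they gave. UTRN (ENSBTAG00000009665) had 83189 UMIs and was seen in 86.2% of cells, SGCA (ENSBTAG00000003956) had 23057 in 45.1%, and SGCB (ENSBTAG00000014601) had 12112 in 43.4%. SSPN (ENSBTAG00000000393) had 2441 UMIs in 11.5% of cells, DAG1 (ENSBTAG00000011580) had 749 in 3.82%, and SGCD (ENSBTAG00000044046) had 412 in 2.11%. The last 3 were thus measured with far less precision, and since the UMIs are not scaled by gene length or capture, levels are compared between clusters and not between genes.

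SGCA carried the clearest pattern. Its level per 10000 UMIs was 3.18 (replicate 1) and 3.26 (replicate 2) in cluster 12. Among the 11 deeper clusters, cluster 3 followed with 1.75 and 1.75, then cluster 1 with 1.18 and 1.17. Next came cluster 2 with 0.889 and 0.953, and cluster 6 with 0.708 and 0.750. Lower still were cluster 10 with 0.489 and 0.477, cluster 4 with 0.265 and 0.264, cluster 5 with 0.199 and 0.204, cluster 8 with 0.139 and 0.150, cluster 11 with 0.135 and 0.107, and cluster 9 with 0.126 and 0.106. Among these 11 deeper clusters the highest mean was 27.8 times the lowest. Of the shallow clusters, cluster 7 stood between clusters 3 and 1 without overlap, at 1.48 and 1.40. Clusters 15, 14 and 13 had means of 0.637, 0.522 and 0.479. Over all 15 clusters only 3 of the 14 neighbours in the order of SGCA levels overlapped between libraries, against 8 for UTRN, 10 for DAG1, 11 for SSPN and 12 each for SGCB and SGCD. An overlap here compares the ranges of both libraries and ignores their pairing, so clusters that overlap can still keep the same order in each library. Clusters 9 and 11, at the bottom, overlapped, with cluster 11 slightly above cluster 9 within each library, a difference that was not tested.

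UTRN followed another order. Its level was 3.88 and 4.06 in cluster 8, followed by cluster 1 with 3.63 and 3.58, cluster 4 with 3.38 and 3.10, cluster 2 with 3.13 and 2.94, and cluster 3 with 3.08 and 2.87. The ranges of clusters 4 and 2 overlapped, as did those of clusters 2 and 3, but within each library the order was 4, 2, 3. Cluster 12, with the highest SGCA, had 2.69 and 2.67, and cluster 9 had 1.07 and 1.01, the lowest mean of all 15. The range of cluster 9 overlapped that of the shallow cluster 15, at 1.05 and 1.37. The shallow cluster 7 stood above every other at 9.05 and 8.71. In that cluster TMM, a scaling that sets the bulk of genes level between groups, lowered every log2 fold change by 0.65. The summed level of 7 fibro-adipogenic markers in cluster 7, mostly collagen, was also the highest at 338 per 10000 UMIs. Of these 7, LUM, DCN, ZNF423 and PPARG were not called there in the test described below. Other sums were the highest there too, such as matrix ligands at 19.4 and pericyte and smooth muscle markers at 3.98. Its sum of differentiated muscle markers, at 7.47, was below only that of cluster 12, at 39.7.

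**Figure D1:**
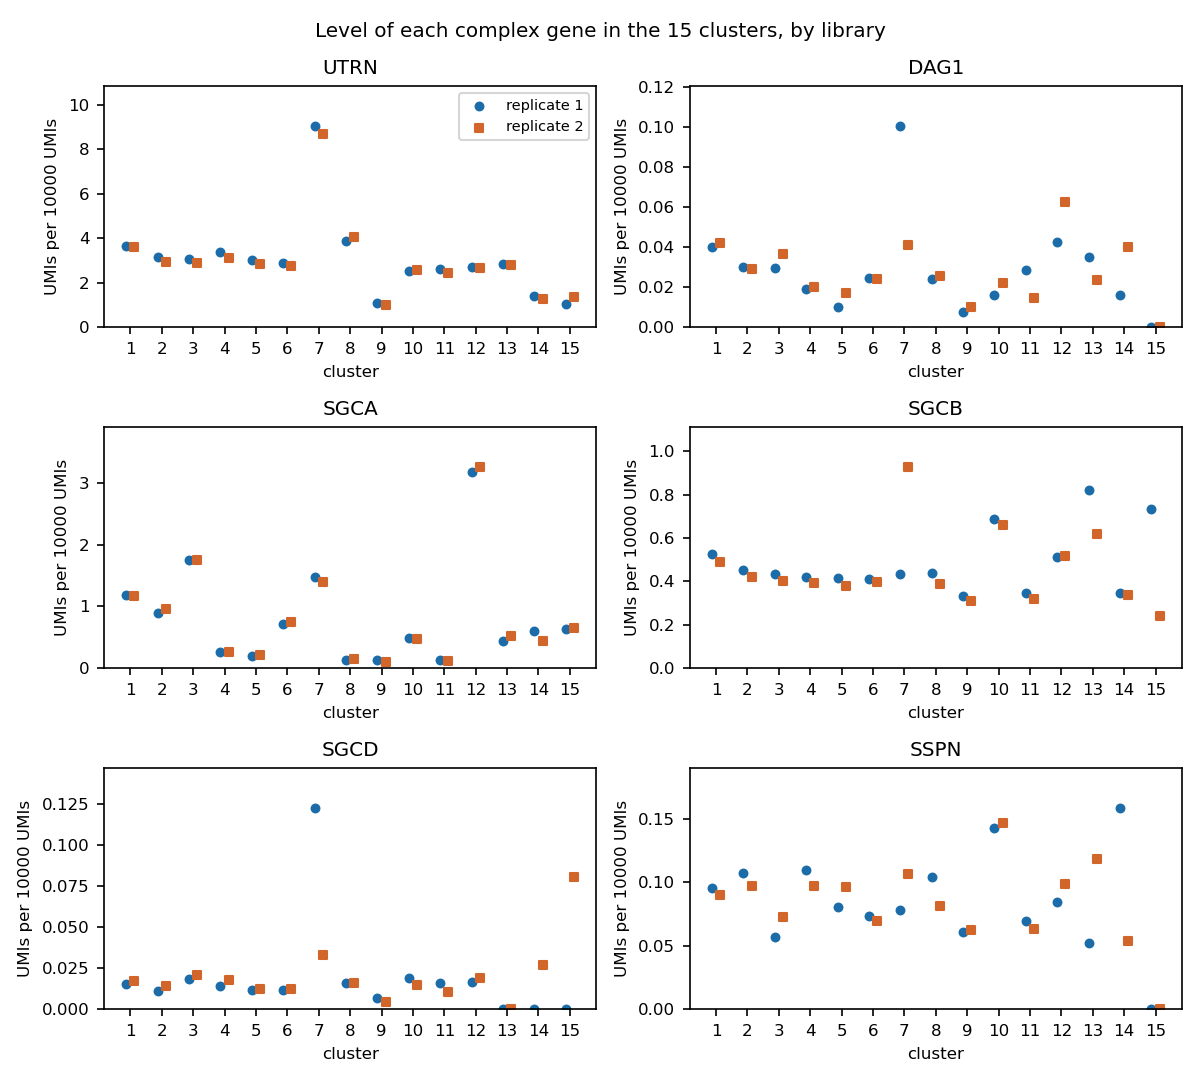
Level of UTRN, DAG1, SGCA, SGCB, SGCD and SSPN in each of the 15 clusters, in UMIs per 10000 UMIs of the cluster, with 1 point for each of the 2 libraries and an axis that starts at 0 in each panel. SGCA peaks in cluster 12 at 3.18 and 3.26, UTRN is low in cluster 9 at 1.07 and 1.01, and the libraries spread far apart for DAG1 and SGCD in the shallow cluster 7 and for SSPN in the shallow clusters 13 and 14.

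The other 4 genes moved less or were too sparse to order. Beta-sarcoglycan (SGCB) varied least among the deeper clusters, from 0.332 and 0.308 in cluster 9 to 0.686 and 0.661 in cluster 10, a ratio of 2.11 between the means. SSPN ran from 0.0606 and 0.0624 in cluster 9 to 0.143 and 0.147 in cluster 10, a ratio of 2.36. DAG1 ran from 0.00775 and 0.00985 in cluster 9, which rests on 11 and 12 UMIs, to 0.0423 and 0.0623 in cluster 12, on 26 and 39 UMIs. SGCD had 10 and 5 UMIs in cluster 9 and 35 and 34 in cluster 3, its highest of the deeper clusters. All 6 genes thus had their lowest level among the 11 deeper clusters in cluster 9, though the libraries of clusters 9 and 11 overlapped in SGCA and SGCB, and those of clusters 9 and 3 in SSPN.

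To ask where the complex was higher, the UMIs of each cluster in each library were summed and tested against the sums of all other cells with the quasi-likelihood test of edgeR, with p-values adjusted by Benjamini and Hochberg's method over all genes tested and a call at an adjusted p under 0.05. All 6 genes passed the filter on low counts in every comparison. Since the clusters were drawn from these same counts and the libraries share their cells, the p-values measure only the technical spread and are too small for a claim about other animals. Among the 90 pairs of gene and cluster, 18 were called higher and 20 lower, where 14.9% and 17.1% of the pairs over all genes were called in these directions. With the library as a block, 24 were higher and 24 lower, but the shares over all genes above are from the fit without the block. Those with the block are not given here.

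Cluster 12, with the highest MYOG, was higher in 3 of the 6 genes and lower in none. Over all genes 24.8% were called higher there and 29.5% lower. SGCA rose by a log2 fold change of 2.38 ± 0.05 (SE, n = 2 sums per group, adjusted p = 8.49e-07 in the edgeR quasi-likelihood test, Benjamini-Hochberg adjusted). DAG1 rose by 1.23 ± 0.21 (adjusted p = 0.00342) and SGCB by 0.46 ± 0.07 (adjusted p = 0.00183) in the same edgeR test. SGCD at 0.48 ± 0.25, SSPN at 0.28 ± 0.12 and UTRN at 0.04 ± 0.05 did not pass, but without TMM UTRN was called lower at -0.14 (adjusted p = 0.0264, edgeR). Thus in the cluster with the most MYOG the 2 genes for dystroglycan and alpha-sarcoglycan were more than 2-fold above the remaining cells, while the sign and the call of UTRN, which codes for the actin linker, depended on TMM.

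Cluster 3, the next in MYOG, was called higher in 3 genes, where 24.5% of all genes were. SGCA rose by 1.50 ± 0.05 (adjusted p = 1.05e-05, edgeR quasi-likelihood test, Benjamini-Hochberg adjusted). DAG1 at 0.50 ± 0.15 (adjusted p = 0.0387) and SGCD at 0.63 ± 0.18 (adjusted p = 0.0315) passed narrowly in edgeR, and both calls were lost with DESeq2, without TMM, without the count filter and with cells assigned by profile. With the library as a block in edgeR, UTRN at 0.16 and SGCB at 0.10 were also called higher, 5 in all. The share over all genes with the block is not given here. SSPN, at -0.33 ± 0.11 (adjusted p = 0.0531), was called lower in 4 of 8 alternatives: with the block, without TMM and with either the cells under 2000 UMIs or the cells over 2 times the median left out.

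Cluster 9 was lower in all 6 genes, where 27.7% of all genes were called lower. SGCA fell by 2.96 on the log2 scale (SE 0.08, adjusted p = 2.77e-06, edgeR quasi-likelihood test, Benjamini-Hochberg adjusted). DAG1 fell by 1.73 (SE 0.21), UTRN by 1.62 (SE 0.06) and SGCD by 1.48 (SE 0.29). SSPN fell by 0.56 (SE 0.09) and SGCB by 0.49 (SE 0.07). Each of these 6 calls was kept under all 8 alternatives tried. The 5 myogenic markers were all called lower in cluster 9 as well, and the part of their loss in this result was not tested.

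**Figure D2:**
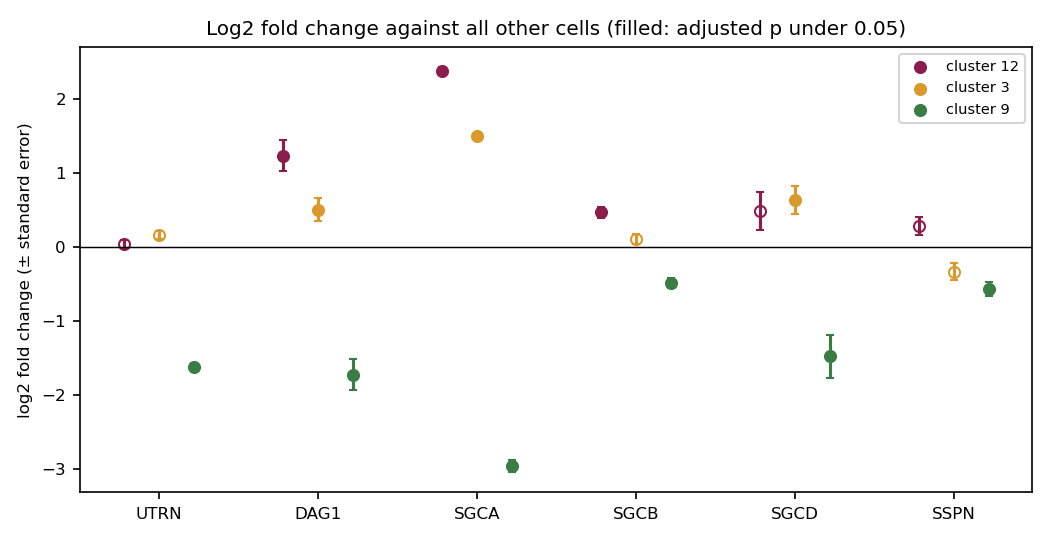
Log2 fold change with its standard error of each of the 6 genes in clusters 12, 3 and 9, each against all other cells, from edgeR, with filled points for an adjusted p under 0.05. SGCA reaches 2.38 in cluster 12, and all 6 genes lie below 0 in cluster 9, from -0.49 for SGCB to -2.96 for SGCA.

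Between clusters 12 and 9 directly, all 6 genes were higher in cluster 12, where 32.6% of all genes were. The log2 fold change was 4.99 ± 0.09 for SGCA (adjusted p = 4.43e-09, edgeR quasi-likelihood test, Benjamini-Hochberg adjusted), 2.77 ± 0.34 for DAG1, 1.83 ± 0.43 for SGCD and 1.57 ± 0.06 for UTRN. It was 0.89 ± 0.09 for SGCB and 0.78 ± 0.18 for SSPN, and with DESeq2 the calls of SGCD (adjusted p = 0.0800) and SSPN (adjusted p = 0.0504) were lost. SGCE went the other way, at -1.48 ± 0.13. UTRN was thus called between clusters 12 and 9 and in cluster 9 against all other cells, but in cluster 12 against all other cells it was called, as lower, only without TMM.

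Clusters 1, 3 and 12 held increasing MYOG and were compared in that order. From cluster 1 to cluster 3, SGCA rose by 0.61 ± 0.04 (adjusted p = 9.21e-05, edgeR quasi-likelihood test, Benjamini-Hochberg adjusted) and was the only 1 of the 6 to rise, where 21.1% of all genes did. UTRN fell by 0.24 (SE 0.05, adjusted p = 0.0103), SGCB by 0.24 (SE 0.07, adjusted p = 0.0344) and SSPN by 0.49 (SE 0.15, adjusted p = 0.0324) in the same edgeR test, 3 of 6 where 19.1% of all genes fell. DESeq2 kept the UTRN call only, and the SSPN call was also lost with cells assigned by profile.

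From cluster 3 to cluster 12, SGCA rose again, by 0.98 ± 0.05 (adjusted p = 5.30e-06, edgeR quasi-likelihood test, Benjamini-Hochberg adjusted). SGCB rose by 0.39 ± 0.08 (adjusted p = 0.00626) and SSPN by 0.61 ± 0.19 (adjusted p = 0.0424) in edgeR, so that 3 of 6 genes were called higher where 18.2% of all genes were. The SSPN call was lost with DESeq2, without TMM and with cells assigned by profile. DAG1, at 0.76 ± 0.26, missed the threshold (adjusted p = 0.0548, edgeR) and passed it with the library as a block (adjusted p = 0.00512). UTRN at -0.06 ± 0.06 and SGCD at -0.04 ± 0.32 were not called, but without TMM UTRN was called lower at -0.15 (adjusted p = 0.0473, edgeR). SGCB and SSPN were thus lower in cluster 3 than in both clusters 1 and 12, whereas SGCA rose at each step.

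SGCE, the relative of SGCA, moved against it. Its level was 0.635 and 0.561 per 10000 UMIs in cluster 8. Cluster 1 had 0.424 and 0.430, cluster 3 had 0.229 and 0.227, and cluster 12 had 0.0992 and 0.0927. SGCE fell by 0.87 on the log2 scale from cluster 1 to 3 (SE 0.06, adjusted p = 8.44e-05, edgeR quasi-likelihood test, Benjamini-Hochberg adjusted). It fell by 1.15 from cluster 3 to 12 (SE 0.11, adjusted p = 0.000170, edgeR). The share of SGCA in the UMIs of both genes was 19.5% ± 2.18 for cluster 8, 73.4% ± 0.234 for cluster 1, 88.5% ± 0.0736 for cluster 3 and 97.1% ± 0.184 for cluster 12 (SD, n = 2 libraries). These libraries did not overlap between any of the 4 clusters. Since UMIs are not scaled by gene length or capture, the share is compared only between clusters and does not show which gene had more transcripts. In cluster 9 the share was 27.3% ± 4.38, with both genes below their level in the remaining cells, SGCE by only 0.32 on the log2 scale (SE 0.07).

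**Figure D3:**
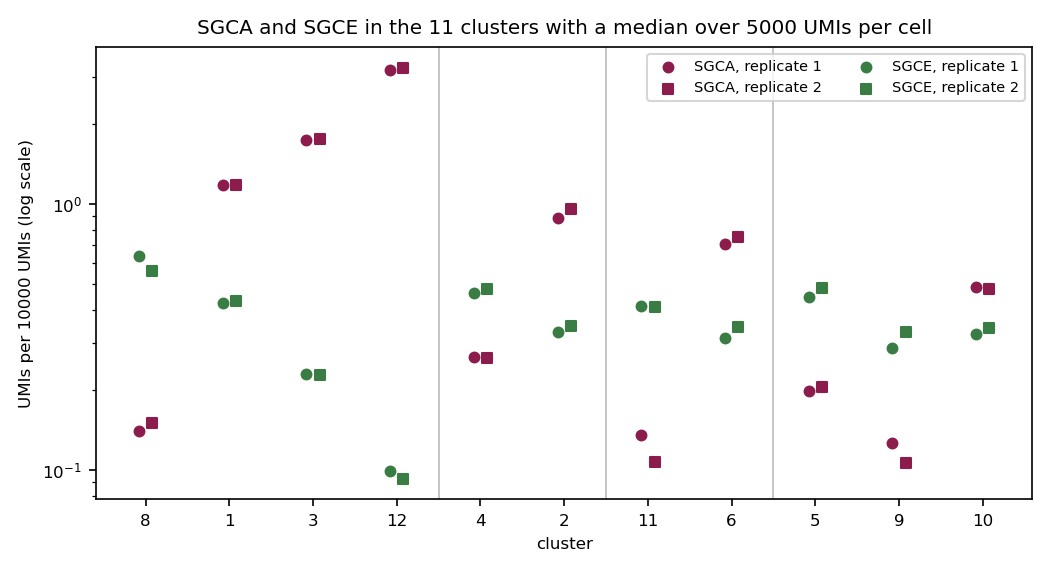
Level of SGCA and SGCE in UMIs per 10000 UMIs, on a log axis, in the 11 clusters whose median was over 5000 UMIs per cell, with 1 point per library and grey lines that separate clusters with low cell cycle levels (8, 1, 3, 12), high G2/M (4, 2), high S phase (11, 6) and the others. SGCA rises from a mean of 0.144 to 3.22 from cluster 8 to cluster 12 while SGCE falls from 0.598 to 0.0959. The SGCA points lie above those of SGCE in clusters 2 and 6 but below them in clusters 4 and 11. Since UMIs are not scaled by gene length or capture, this does not show which gene had more transcripts.

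SGCA also differed between clusters with similar summed levels of cell cycle genes. Clusters 1 and 8 both had low levels of S phase genes (3.58 and 3.22 per 10000 UMIs over 7 genes) and of G2/M genes (2.46 and 1.58 over 6 genes). Clusters 2 and 4 both had high G2/M levels, at 37.1 and 37.4, and clusters 6 and 11 both had high S phase levels, at 16.4 and 16.2, with G2/M levels of 11.6 and 9.99. The match was not complete, since 3 of the 6 G2/M genes (CENPF, CCNB1 and UBE2C, by 0.94, 0.79 and 0.66) and 2 of the 7 S phase genes were called higher in cluster 1 than in 8. In cluster 6 against 11, UBE2C rose by 0.59, AURKA by 0.43 and MCM3 by 0.34, and in cluster 2 against 4, 3 of the 13 genes were called higher and 1 lower. These 3 comparisons were chosen after seeing the levels of SGCA, so its own differences here are a description of size. SGCA was higher by 3.06 ± 0.07 in cluster 1 than in 8, by 1.79 ± 0.06 in cluster 2 than in 4, and by 2.65 ± 0.10 in cluster 6 than in 11 on the log2 scale. The summed myogenic markers were also higher, at 12.6 against 3.55, 12.5 against 5.21 and 11.3 against 3.38 per 10000 UMIs.

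The pairs were chosen on SGCA and not on the other 5 genes of the complex, but with earlier results of these data known. The counts for these 5 are thus no independent check. In cluster 1 against 8, DAG1 rose by 0.76 ± 0.22 (adjusted p = 0.0311) and SGCB by 0.34 ± 0.08 (adjusted p = 0.0154) in the edgeR quasi-likelihood test, Benjamini-Hochberg adjusted, so that 2 of these 5 were higher where 17.2% of all genes were, but DESeq2 called neither. In cluster 2 against 4, none of the 5 was called higher in edgeR, where 14.5% of all genes were, nor in DESeq2, and 1 of them, DAG1 at 0.60 ± 0.20, was under an unadjusted threshold of 0.05 in edgeR (adjusted p = 0.0669). With the library as a block DAG1 was called (adjusted p = 0.0366, edgeR). In cluster 6 against 11, UTRN rose by 0.22 ± 0.05 (adjusted p = 0.0276) and SGCB by 0.34 ± 0.08 (adjusted p = 0.0263) in edgeR, again 2 of 5, where 8.75% of all genes were called higher, and without TMM neither was. The SGCB call was also lost with DESeq2 (adjusted p = 0.177) and with cells assigned by profile (adjusted p = 0.0964, edgeR). UTRN had values of -0.10 ± 0.05 and -0.11 ± 0.06 in the first and second pair, which edgeR called lower with the library as a block (adjusted p = 0.00998 and 0.00845), and the first also without TMM (adjusted p = 0.0395). SGCD and SSPN passed in none of the 3. SGCE was lower in cluster 1 than 8 by a log2 value of -0.45 ± 0.08 and in cluster 2 than 4 by -0.49 ± 0.06, and its value in cluster 6 against 11 was -0.26 ± 0.08 (adjusted p = 0.0638, edgeR), which passed with the library as a block (adjusted p = 0.00212).

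**Figure D4:**
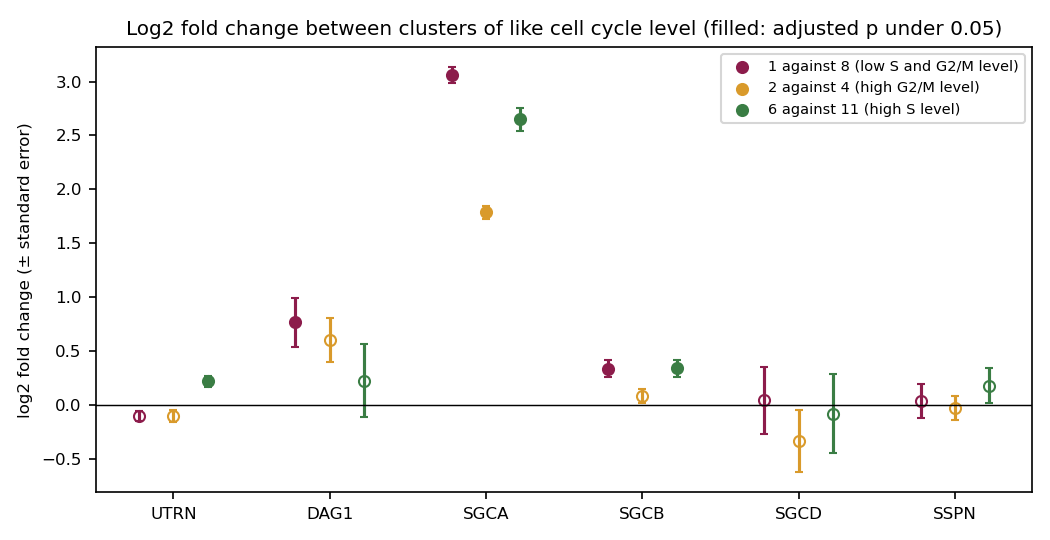
Log2 fold change with its standard error of the 6 genes between 3 pairs of clusters with like levels of cell cycle genes, from edgeR, with filled points for an adjusted p under 0.05. SGCA lies between 1.79 and 3.06 in all 3 pairs, and each other gene lies between -0.34 and 0.76.

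Counted per cell, the pattern held at equal depth. Cells were thinned to 5000 UMIs each, which kept 15996 cells and left out 3100, among them all cells of clusters 13 and 15 and all but 12 of cluster 7. SGCA was then seen in 77.0% of cells of cluster 12 (95% exact binomial interval 73.5 to 80.3, counting error only), 57.5% of cluster 3, 41.2% of cluster 1 and 6.49% of cluster 8 (interval 5.18 to 8.01). The lowest share was 4.72% in cluster 9 (interval 3.54 to 6.16), where MYOG was seen in 6.39% of cells. No cluster could be taken as a cell type that lacks SGCA, so the share that free RNA in the droplets would give was not tested. UTRN was seen in 35.5% of the cells of cluster 9 (interval 32.6 to 38.4) and in 66.2% to 81.5% of the cells of the other 10 deeper clusters. SGCB ranged only from 14.5% in cluster 11 to 27.1% in cluster 10.

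Within cluster 3 the thinned cells were also divided by their own MYOG UMIs. SGCA was 1.46 and 1.61 per 10000 UMIs in the 744 cells with no MYOG UMI, 1.75 and 1.98 in the 698 cells with 1 to 4, and 2.16 and 2.16 in the 589 cells with 5 or more. UTRN ran the other way, at 3.37 and 3.30, then 3.34 and 2.77, then 2.43 and 2.24. For both genes the libraries did not overlap between the first and last group. CAV3, which encodes the muscle caveolin that binds dystroglycan, showed no such order at 2.20 ± 0.150, 2.12 ± 0.290 and 2.27 ± 0.202, and SGCE was 0.237 ± 0.0336, 0.231 ± 0.0108 and 0.191 ± 0.0266. In cluster 1, SGCA was 1.11 ± 0.0192, 1.57 ± 0.0508 and 1.67 ± 0.212 in the same groups, the last of which held 55 cells. MYOG UMIs were used to make these groups and MYOG is one of the genes that separate the clusters, so the values are given with no test.

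**Figure D5:**
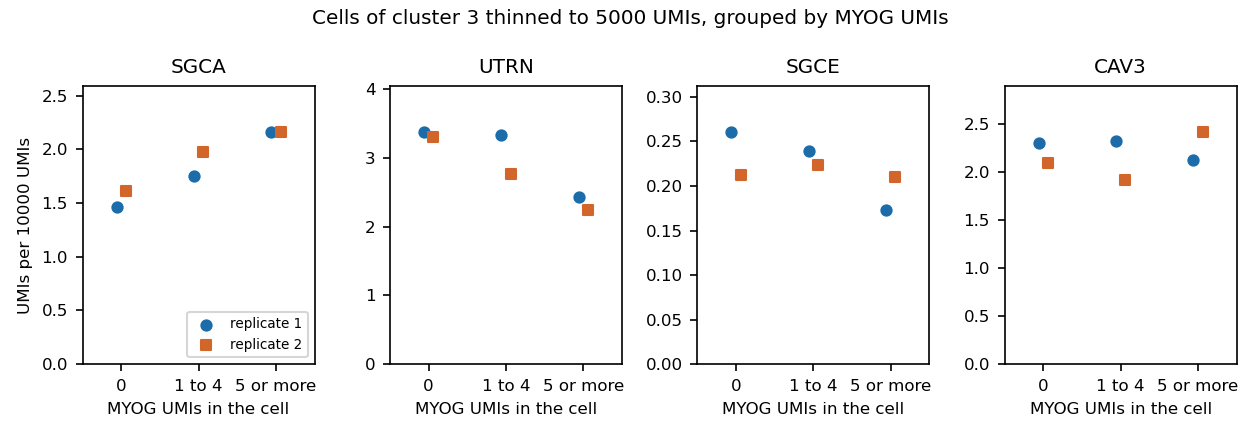
Level of SGCA, UTRN, SGCE and CAV3 in UMIs per 10000 UMIs in the cells of cluster 3, thinned to 5000 UMIs and grouped by the number of MYOG UMIs in the cell, with 1 point per library. SGCA goes from 1.46 and 1.61 to 2.16 in both libraries, and UTRN goes from 3.37 and 3.30 to 2.43 and 2.24.

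Whether genes of the complex were seen in the same cells beyond what their shares give was examined in clusters 1, 3 and 12. The share of thinned cells with UMIs of both SGCA and SGCB was 1.05 to 1.13 times the product of the separate shares in the 6 combinations of cluster and library. For SGCA with UTRN the ratio was 0.983 to 1.02, for SGCA with CAV3 0.977 to 1.06 and for SGCA with SGCE 0.895 to 1.10. SGCA with SGCB was thus above 1 in all 6 combinations, and the other 3 pairs lay on both sides of 1. These ratios rest on sparse counts and were not tested.

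The other genes of the complex were read from a list of 12, of which 11 were matched and 9 were tested in cluster 12 against all other cells. There 4 were higher and 2 lower, where 24.8% and 29.5% of all genes were, with a median log2 fold change of 0.51 against -0.09 over all genes. DTNA, which encodes alpha-dystrobrevin, rose by 2.89 ± 0.15 and CAV3 by 2.73 ± 0.07. The syntrophin genes, whose proteins are adaptors that bind dystrophin, did not move as one: SNTB1 rose by 1.17 ± 0.24 and SNTB2 fell by 1.30 (SE 0.08). SGCE was the other gene that fell, by 1.81 (SE 0.08). In cluster 9, 7 of the 9 were lower and none was higher, where 27.7% and 25.3% of all genes were, with a median of -1.67 against -0.04 over all genes, and CAV3 fell by 3.42 (SE 0.07).

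The genes whose products add the laminin-binding sugars to dystroglycan were mixed. Of 20 listed, 18 were matched and 17 tested. In cluster 12, 8 were higher and 3 lower, where 24.8% and 29.5% of all genes were, with a median of 0.26. B3GALNT2 rose by 0.92 ± 0.08 and POMK by 0.81 ± 0.07. In cluster 9, 5 were higher and 5 lower, close to the 25.3% and 27.7% of all genes. B3GALNT2 fell there by 1.37 (SE 0.07).

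On the outer side, genes of the matrix ligands moved in both directions. In cluster 12, of the 9 ligand genes tested out of 11 matched, 1 was higher and 4 lower, where 24.8% and 29.5% of all genes were, with a median of -0.86. LAMA4 fell by 2.59 (SE 0.11), LAMB1 by 1.48 (SE 0.06) and LAMC1 by 0.82 (SE 0.05), which encode laminin chains, and BGN, the proteoglycan biglycan, fell by 2.39 (SE 0.10). LAMB2 rose by 0.48 ± 0.07. In cluster 9, 3 ligand genes were higher and 4 lower, where 25.3% and 27.7% of all genes were. BGN rose by 4.85 ± 0.10 and LAMA4 by 1.62 ± 0.05. LAMA2, the laminin chain of mature muscle, was not matched and not analysed here.

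On the inner side, 9 genes of cytoplasmic linkers were tested. In cluster 12, 4 were higher and 2 lower, where 24.8% and 29.5% of all genes were. SYNC rose by 2.70 ± 0.05, ANK3 by 1.87 ± 0.08, FLNC by 1.39 ± 0.05 and MAST2 by 0.93 ± 0.06, which encode syncoilin, an ankyrin, filamin C and a kinase that binds syntrophin. The cytoplasmic actins ACTG1 and ACTB fell by 0.68 and 0.57 (SE 0.05 each). The integrin alpha 7 beta 1, a second laminin receptor of muscle, was split between its subunits: in cluster 12 ITGA7 rose by 1.14 ± 0.05 and ITGB1, shared by many integrins, fell by 0.72 (SE 0.07). In cluster 9 ITGA7 fell by 2.56 (SE 0.07) and ITGB1 rose by 0.71 ± 0.07.

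Genes with the most similar pattern were ranked by Pearson's r of the log2 levels over the 15 clusters among 9067 genes with at least 1000 UMIs. The nearest to SGCA were KLHL41 (r = 0.986), CHRNG (0.978) and NEB (0.970), which encode a sarcomere-associated kelch protein, a subunit of the fetal acetylcholine receptor and nebulin. Those nearest to UTRN were GLB1 (0.953), NBEA (0.946) and APLP2 (0.940), and those nearest to SGCB were RXRA (0.934), AP2A2 (0.923) and PACS2 (0.922). The nearest to DAG1 was LDB3 (0.932), to SGCD ATG14 (0.958) and to SSPN PLA2G6 (0.961), but these members have few UMIs in the shallow clusters. The ranking used a pseudocount of 0.01, and ATG14 and PLA2G6 left the first 3 with a pseudocount of 0.1 or 1, while NBEAL1 then came before LDB3. With a pseudocount of 1, KLHL41 stayed the nearest to SGCA, but CHRNG and NEB left the first 3. Between the members themselves, r was 0.312 for SGCA with UTRN, 0.495 with SGCB, 0.552 with DAG1 and 0.00321 with SSPN. The highest was 0.728 for UTRN with DAG1 and the lowest -0.305 for SGCD with SSPN. SGCB with SSPN gave 0.0888, and SGCD with DAG1 gave 0.153. The members thus did not share 1 pattern, and SGCA with SGCE gave -0.501. Some of these values moved with the pseudocount: at 0.1 and 1, SGCA with DAG1 gave 0.668 and 0.704 and SGCA with SGCB gave 0.464 and 0.363. UTRN with DAG1 stayed the highest, at 0.739 and 0.754. The 15 points share the 2 libraries and differ in depth, so these are descriptions of this culture.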

How the data were processed

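Single-cell suspensions were run on the 10x Chromium 3′ v3 system. The deposited count matrices hold the UMI counts per gene and cell that the authors made with Cell Ranger 3.0.2 on ARS-UCD1.2, after reads of the deeper library had been subsampled to an equal mapped depth per cell. The authors also deposited the average score of each gene in each of 15 clusters, a mean UMI number per cell on a scale common to all cells, in a table that also holds fold changes and p-values, which were not used. No map of cells to clusters was used: each cell's cluster was solved from whole UMI sums so that every deposited average was returned, for all 19096 cells.

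UMIs were summed per cluster and library and tested with edgeR 4.0.16 in R 4.3.3 (TMM, filterByExpr, quasi-likelihood, Benjamini-Hochberg adjustment, threshold 0.05), on 2 sums against 2. The SE of an edgeR log2 fold change was derived as its absolute value divided by the square root of the quasi-likelihood F statistic. Levels use no pseudocount, and correlations use log2 of the level + 0.01. DESeq2 1.42.0, no TMM, no filter, the library as a block, cells under 2000 UMIs left out, cells over 2 times the median of their cluster left out, cells assigned by profile (86.1% kept their cluster) and shallow clusters left out were the alternatives. Doublets were otherwise kept. Each library number marks 1 library preparation, which pairs the sums: deviations of same-numbered sums correlated at 0.167 to 0.669 (median 0.565).

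The named genes were the members, SGCE and CAV3, and genes of the lists for the complex, the sugars of dystroglycan, ligands, linkers and cell markers, with values for those called, and the 3 genes most like each member. Some genes of these lists are not reported here by name. Members, lists and comparisons were chosen with earlier results of these data known, and 3 comparisons within cell cycle stages were added after seeing levels. Python 3.11.15 with numpy 2.4.6, scipy 1.17.1 and pandas 2.3.3 was used. The fits were tested on simulated counts in which 200 genes were changed 3-fold. From 77% (cluster 12 against all other cells) to 91.5% (cluster 3 against cluster 1) of these were recovered. Unchanged genes were called too, 35 in cluster 3 against all others, 34 in 12 against 3 and 33 in 3 against 1. Such calls numbered 18 for cluster 9 and 10 for cluster 12 against all others, and 14 for 12 against 9. Calls close to the threshold are thus less certain. The simulated sums were drawn without the pairing of the libraries, and changes smaller than 3-fold were not simulated. Intervals are exact (Clopper-Pearson, 95%). Of 7 members, DMD was not matched, so the planned share of DMD in DMD and UTRN was not computed. No coordinates or sequences are given.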

Additional observations from a re-analysis of the deposited data

How the results depend on the processing

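Over the alternatives, 466 of 504 log2 fold changes of the 6 genes kept their direction and, where tested, their side of the threshold. Of the others, 22 lost a call, 15 gained one, and 1 with no test moved by more than the spread between libraries. None that was called changed sign. The 504 include the values with 1 library left out, which had no test and so could not lose or gain a call. The number of genes called higher in cluster 3 than in all other cells, 3 in the fit reported, was 1 with DESeq2, without TMM, without the filter on low counts and with cells assigned by profile, and 5 with the library as a replicate block. The 3 genes lower in cluster 3 than in cluster 1 became 1 with DESeq2, as did the 3 higher in cluster 1 than in cluster 8. The replicate block also gave 2 genes higher in cluster 2 than in cluster 4 in place of 1, and leaving out TMM gave 1 higher in cluster 6 than in cluster 11 in place of 3. There the SGCB call was also lost with DESeq2 and with cells assigned by profile. The counts for these 3 pairs include SGCA, on which the pairs were chosen. Shares over all genes under the alternatives are not given here. In other comparisons the block added calls as stated beside them and took none away. Leaving out a library gave values with no test, and DAG1 in cluster 6 against 11 was -0.15 in replicate 1 and 0.77 in replicate 2. Cluster 15 had no cell above 2000 UMIs, so that fit was not run for it. The cause of these changes was not tested. DAG1 and SGCD rest on 749 and 412 UMIs. The TMM factor of the cluster over that of the other cells had a log2 ratio of -0.18 in cluster 12 and -0.13 in cluster 3. Between clusters 12 and 9 this ratio was -0.21. A negative ratio raises the log2 fold changes of all genes by its size.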

Other observations

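Cluster 10, with a median of 5398.5 UMIs per cell, had the highest mean SSPN of all clusters, at 0.143 and 0.147 per 10000 UMIs, and the highest SGCB of the deeper clusters, at 0.686 and 0.661. Its UTRN, at 2.52 and 2.55, was among the lower levels. SSPN and SGCB thus did not follow SGCA or UTRN there. Of its 1010 cells, 452 were below 5000 UMIs and were left out when cells were thinned, and SSPN was seen in 7.35% of the 558 that remained (95% exact binomial interval 5.32 to 9.84, counting error only), against 2.78% in cluster 9 and 4.24% in cluster 12.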
